A study of Mus musculus with 23 samples.

Results

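The comparison described here is that of the nucleus accumbens of 2 lines of mice after a saline injection, HMACT against LMACT, on 12 of the 23 arrays of the series. All genes whose value exceeded 2.3, the floor of the deposited log2 values, on 7 or more of the 12 saline arrays were taken, which gave 5307 of the 8251 genes measured. Both lines descend from C57BL/6J x DBA/2J stock, HMACT by selection for a strong and LMACT by selection for a weak acute response to methamphetamine. Mice were killed 1 h after an injection of saline or of methamphetamine at 2 mg/kg, and each array carries accumbens RNA from a pool of 4 mice.

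HMACT saline comprised 6 pools with a mean age of 113.9 ± 38.2 days (SD, n = 6) and LMACT saline 6 pools with a mean age of 76.3 ± 25.3 days (SD, n = 6), and none of these animals had the drug in this challenge. The labels name a single line for each direction of selection, so that a difference that came with selection and a difference that came with drift between the 2 populations cannot be told apart. The labels give no genotype of any pool beyond its line, and the sex and any earlier injections of the mice are not stated. P-values below measure the spread between pools; whether pools shared litters is not stated.

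The nucleus accumbens is the ventral part of the striatum and is made up mostly of GABAergic projection neurons that receive dopamine from the midbrain. Methamphetamine enters dopamine terminals through the dopamine transporter and releases dopamine from them, which stimulates locomotion in mice. Lines bred in opposite directions from a cross of inbred strains come to differ in which parental allele they carry at many loci. Differences in their RNA without the drug are a basal difference between the lines. Probes that lie over sequence variants between the parental strains could not be listed. Line differences in signal at such probes were therefore not told apart from differences in RNA. The defining striatal genes Drd2, Penk and Tac1 were above the floor on every saline array, and 10 of the 12 striatal projection neuron genes on the array passed the floor rule. Rgs9 and Chrm4 of that list did not pass it, and neither did Ttr, the defining transcript of the choroid plexus.

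No gene differed between the lines after saline at an adjusted p under 0.05 (limma over all 23 arrays with Benjamini-Hochberg adjustment, 0 of 8251 genes, 0%). The smallest adjusted p was 0.135, and 1256 genes had an unadjusted p under 0.05. Among the 5307 genes above the floor, 534 of the latter were higher in HMACT (10.1%) and 679 lower (12.8%). The genes named below are therefore given with values that did not pass this test. Over all genes above the floor the median difference, HMACT minus LMACT, was 0.02 log2 units, and the median size of the difference was 0.27. In 366 genes the difference was over 1 log2 unit in size, and 303 of these were lower in HMACT.

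The arrays of the 2 lines were unequally uniform. The median SD of a gene over the 6 pools was 0.42 log2 units in HMACT and 0.17 in LMACT, and it was larger in HMACT for 84.3% of the genes. The main axis of variation within groups took 62.1% of the residual variance. HMACT saline replicates 3 and 5 scored highest of the saline arrays on it, with 48.80 and 25.67. The 6 LMACT saline pools lay between -2.90 and 5.88. HMACT replicates 1 and 6 lay at the other end of it with -29.03 and -35.83, farther out than replicate 5. Leaving out replicates 3 and 5, as done below, thus takes arrays from a single end of this axis. The difference between the 3′ and 5′ probe sets of the control transcripts, a measure of RNA integrity and labelling, was 1.07 log2 units on HMACT replicate 3 and from 2.13 to 2.79 on the other 11 arrays. Without replicates 3 and 5 the median SD in HMACT was 0.28, and below the value without them, written "without the 2 arrays", follows each difference that moved by over 1.5 times.

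For 156 of the 5307 genes the 6 HMACT pools and the 6 LMACT pools did not overlap. All HMACT pools were higher for 31 genes (0.584%), with a median difference of 0.75, and all were lower for 125 genes (2.36%), with a median difference of -0.86. The differences ranged from -2.50 (Stxbp3) to 1.86 (Pih1d1). In an exact two-sided permutation test over the 924 arrangements of the 12 arrays, a gene without overlap reaches p = 0.00216, the smallest this design allows, which became 0.114 after Benjamini-Hochberg adjustment over all 8251 genes. Without HMACT replicates 3 and 5 the groups did not overlap for 33 genes that were higher and 133 that were lower, in 4 against 6 arrays. The split between the directions depended on the scaling of the arrays. After median centring it was 111 higher and 55 lower, and after quantile normalization 95 higher and 56 lower. Of the 125 lower genes, 121 were also lower on HMACT replicates 3 and 5 than on the other 4 HMACT pools, by a median of -0.96; of the 31 higher genes, 29 were higher there, by a median of 0.67. The part of these arrays in the counts was not tested beyond leaving them out.

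**Figure D1:**
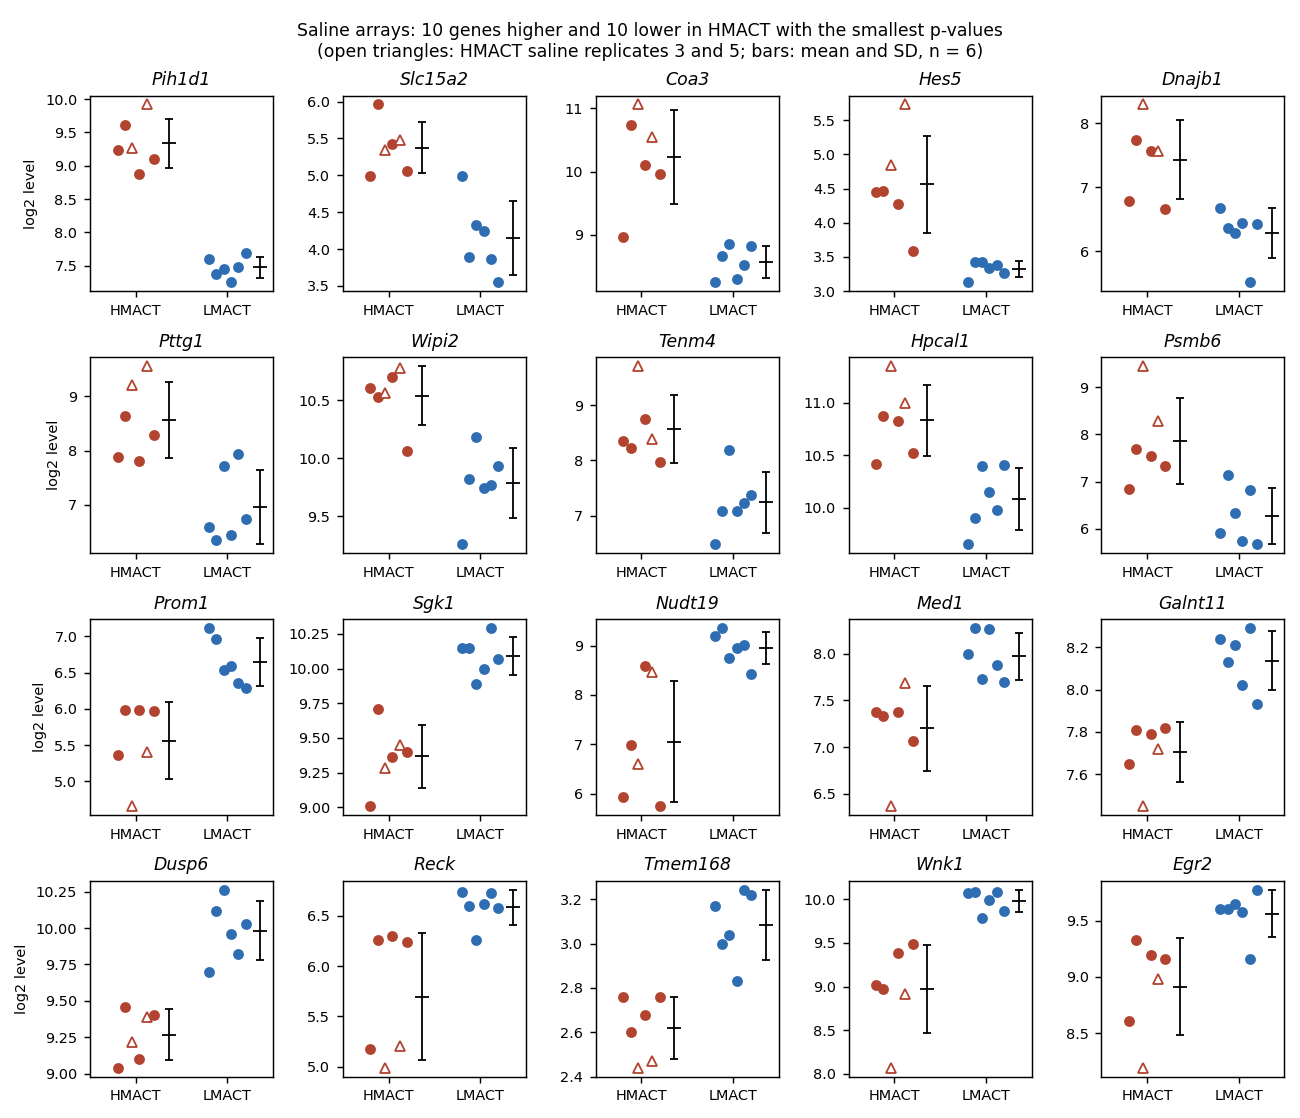
Deposited log2 values on the 12 saline arrays for the 10 genes higher (upper 2 rows) and the 10 genes lower (lower 2 rows) in HMACT with the smallest p-values; points are pools of 4 mice, open triangles are HMACT replicates 3 and 5, and bars give mean and SD (n = 6). For 11 of the 20 genes the lines do not overlap, and the LMACT pools lie closer together than the HMACT pools for most genes; none of the 20 passed the adjusted test.

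Pih1d1, a subunit of a co-chaperone complex that works with HSP90, had the smallest p. It lay at 9.24, 9.61, 9.26, 8.88, 9.92 and 9.10 log2 units in the HMACT pools and at 7.60, 7.38, 7.45, 7.25, 7.48 and 7.69 in the LMACT pools. Every HMACT pool was thus above every LMACT pool, by more than a log2 unit. The difference was 1.86 ± 0.33 (SE), or 3.63-fold, with an adjusted p of 0.135 (limma over 23 arrays). In a limma fit of the 12 saline arrays alone it was the only gene called, with an SE of 0.16 and an adjusted p of 0.00265. The difference of Pih1d1 was 1.73 without HMACT replicates 3 and 5, and 1.75, 1.49 and 2.67 within the 3 lots of arrays that hold both lines.

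Coa3, an assembly factor of cytochrome c oxidase, ranged from 8.97 to 11.06 in HMACT, with a median of 10.33, and from 8.25 to 8.86 in LMACT, with a median of 8.59. The groups did not overlap, although HMACT replicate 1 came close to the highest LMACT pool. The difference of Coa3 was 1.66 ± 0.33 (SE; limma adjusted p = 0.135). Slc15a2, a proton-coupled peptide transporter found on astrocytes, had HMACT values from 4.99 to 5.96 around a median of 5.38 and LMACT values from 3.55 to 4.99 around a median of 4.07. LMACT replicate 1 alone reached the lowest HMACT value, and the difference of Slc15a2 was 1.23 ± 0.24 (SE; limma adjusted p = 0.135). Leaving out single pools brought these genes past the threshold, Coa3 without HMACT replicate 1 (limma adjusted p = 0.0394) and Slc15a2 without LMACT replicate 1 (limma adjusted p = 0.0331).

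Hes5 encodes a transcriptional repressor that is induced by Notch signalling. Its HMACT values ran from 3.58 to 5.73, with a median of 4.46, while the LMACT pools were all between 3.13 and 3.42. The pools did not overlap, and the difference was 1.23 ± 0.26 (SE; limma adjusted p = 0.17), or 0.87 without HMACT replicates 3 and 5. Dnajb1, an HSP40 co-chaperone of HSP70, had HMACT values from 6.66 to 8.29 and LMACT values from 5.52 to 6.67. The groups met at a single point, 6.66 in HMACT replicate 6 and 6.67 in LMACT replicate 1, and the Dnajb1 difference was 1.15 ± 0.25 (SE; limma adjusted p = 0.17).

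The remaining higher genes among the 10 had limma adjusted p-values from 0.266 to 0.32. They were Pttg1, the securin that acts in sister chromatid separation (difference 1.60), and Psmb6, a catalytic subunit of the proteasome (1.58). Tenm4, a teneurin adhesion protein, differed by 1.32, and its second probe set above the floor by 0.84. Wipi2, which acts in autophagosome formation, differed by 0.76, and its second probe set by 0.21. Hpcal1, a neuronal calcium sensor, differed by 0.75 and was the only 1 of these 5 whose pools did not overlap, with HMACT from 10.42 to 11.35 and LMACT from 9.65 to 10.41. Blcap, a small membrane protein named here after its values were seen, lay between 10.59 and 11.20 in HMACT and between 10.31 and 10.54 in LMACT, with a difference of 0.48 ± 0.12 (SE; limma adjusted p = 0.32).

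Among the genes that were lower in HMACT, Prom1 had the smallest p. It encodes prominin-1, a glycoprotein of membrane protrusions. The HMACT pools lay from 4.66 to 5.98, with a median of 5.68, and the LMACT pools from 6.28 to 7.11, with a median of 6.56. They did not overlap, and the difference of Prom1 was -1.08 ± 0.21 (SE; limma adjusted p = 0.135); a second probe set above the floor differed by -0.53. Med1, a subunit of the Mediator complex that links transcription factors to RNA polymerase II, ran from 6.37 to 7.68 in HMACT and from 7.70 to 8.27 in LMACT. Its groups all but touched, with a difference of -0.77 ± 0.17 (SE; limma adjusted p = 0.201).

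Nudt19, a peroxisomal hydrolase of coenzyme A, gave the widest spread within HMACT among these genes. Its HMACT values were 5.94, 6.98, 6.61, 8.58, 8.47 and 5.75, and its LMACT values 9.19, 9.35, 8.75, 8.95, 9.02 and 8.43. HMACT replicates 4 and 5 lay at the level of LMACT replicate 6, and the other 4 HMACT pools were more than a log2 unit below all LMACT pools. The difference of Nudt19 was -1.89 ± 0.41 (SE; limma adjusted p = 0.17). It was -2.53 within the largest lot, in 4 against 4 arrays, and -0.76 and -0.47 in the 2 lots that hold 1 pool of each line.

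Galnt11, an enzyme that starts O-linked glycosylation, differed by little but with a small spread. HMACT lay from 7.45 to 7.82 and LMACT from 7.93 to 8.29, without overlap, and the difference was -0.43 ± 0.10 (SE; limma adjusted p = 0.311). Tmem168, a transmembrane protein, was near the floor in both lines, at 2.44 to 2.76 in HMACT and 2.83 to 3.24 in LMACT, so that its difference of -0.46 can understate the change in RNA. Wnk1, a kinase that controls chloride cotransporters, lay from 8.07 to 9.49 in HMACT and from 9.79 to 10.08 in LMACT, with a difference of -1.0 ± 0.26 (SE; limma adjusted p = 0.32). Its other probe sets above the floor went both ways, by -0.51 and 0.27. Reck, a membrane inhibitor of matrix metalloproteinases, differed by -0.88, or -0.58 without the 2 arrays, with HMACT replicates 1, 3 and 5 at 5.18, 4.99 and 5.21 and the other HMACT pools at 6.26, 6.30 and 6.24, level with the lowest LMACT pool, at 6.26.

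Sgk1, Dusp6 and Egr2, which are all induced by stimuli, were among the 10 lower genes. Sgk1 encodes a kinase whose transcription is raised by glucocorticoids. It lay from 9.01 to 9.71 in HMACT, with a median of 9.38, and from 9.89 to 10.29 in LMACT, with a median of 10.11. The pools did not overlap, and the difference of Sgk1 was -0.73 ± 0.15 (SE; limma adjusted p = 0.135), the same -0.73 without HMACT replicates 3 and 5. Dusp6, a phosphatase induced by ERK signalling and directed against it, lay from 9.04 to 9.46 in HMACT and from 9.70 to 10.26 in LMACT, again without overlap. Its difference was -0.71 ± 0.18 (SE; limma adjusted p = 0.32), and -0.73 without the 2 arrays. Egr2, a zinc-finger transcription factor of the immediate early class, lay from 8.19 to 9.33 in HMACT and from 9.16 to 9.77 in LMACT. LMACT replicate 5, at 9.16, was inside the HMACT range, and the Egr2 difference was -0.65 ± 0.17 (SE; limma adjusted p = 0.32), or -0.49 without the 2 arrays.

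The sequences before the start sites of Hes5, Egr2 and Sgk1 are shown because each holds an element known from textbooks of the signal that induces the gene. They are stretches of the RefSeq promoters (GRCm38.p6, plus strand, 5′ to 3′), searched on both strands over the 250 bases before each start, with the match in capitals. Hes5 (chr4:154960795-154960891) holds GTGGGAA, a sequence of the Notch-linked factor RBPJ, 83 to 77 bases before its start. This is the nearer to the start of 2 matches in the bases searched. Egr2 (chr10:67537449-67537548) holds a CArG box, the element of serum response factor, 72 to 63 bases before the start shown, and 4 of its 5 annotated starts have such a box. Sgk1 (chr10:21993657-21993759) holds a match to GNACANNNTGTNC, a sequence of the glucocorticoid receptor, 188 to 176 bases before 1 of its 6 starts.
Hes5: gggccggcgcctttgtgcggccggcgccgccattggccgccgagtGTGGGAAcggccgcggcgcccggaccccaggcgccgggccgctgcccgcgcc
Egr2: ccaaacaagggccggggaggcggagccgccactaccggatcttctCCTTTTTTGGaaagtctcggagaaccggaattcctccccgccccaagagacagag
Sgk1: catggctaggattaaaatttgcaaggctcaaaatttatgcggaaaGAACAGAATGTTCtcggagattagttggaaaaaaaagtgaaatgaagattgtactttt
Of 32851 RefSeq promoters, 1779 (5.42%) held the Hes5 sequence, 482 (1.47%) a CArG box and 127 (0.39%) the sequence searched in Sgk1. These matches describe letters in a window, and no binding was measured in these samples.

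The same line difference could be read in the animals given methamphetamine, 6 HMACT and 5 LMACT pools. Their arrays do not enter the saline means, and so not the choice of genes without overlap, but they do enter the estimate of spread behind the p-values that ranked the 20 genes. They are not wholly apart from the saline arrays either: deviations from the group means correlated between saline and methamphetamine arrays of the same number with r from -0.618 to 0.876 in HMACT, where 5 of 6 were over 0.1, and from -0.140 to 0.398 in LMACT, where 3 of 5 were. HMACT methamphetamine replicate 3 and LMACT methamphetamine replicate 4 stood apart on the main axis, with scores of 56.84 and 58.80. Mean ages were 150, 141.5 and 149.75 days in HMACT methamphetamine replicates 1 to 3 and 77.25, 88 and 86 days in replicates 4 to 6. They were 60 to 72.75 days in LMACT methamphetamine replicates 2 to 5 and 114.75 days in replicate 6. Line and age thus overlap in part here too, and agreement in sign does not separate them. Across the 5307 genes the saline and the methamphetamine differences correlated (r = 0.501, Pearson; rho = 0.441, Spearman), which is given as a description, since genes are not independent replicates and the arrays of a line share the line, array lots and, for several numbers, the mean age and the deviations just given. Of the 31 genes whose saline pools did not overlap with HMACT higher, 26 were also higher in HMACT after methamphetamine, where 43.1% of all genes were. Of the 125 lower genes, 119 were also lower, where 56.9% of all genes were. Their median differences after methamphetamine were 0.29 and -0.29, smaller than the 0.75 and -0.86 after saline that chose them. Without the 4 arrays of the series that scored highest on the main axis, the counts were 26 and 120.

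**Figure D2:**
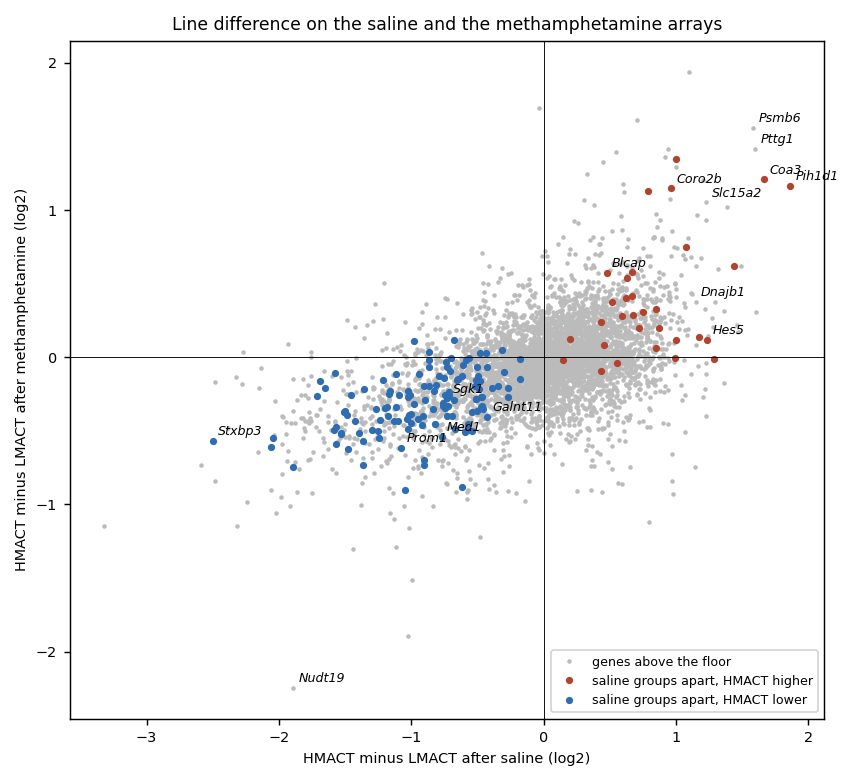
Line difference (HMACT minus LMACT, log2) on the 12 saline arrays (horizontal axis) against that on the 11 methamphetamine arrays (vertical axis) for the 5307 genes above the floor, with the 31 and 125 genes without overlap after saline in red and blue. Pih1d1, Coa3, Pttg1, Psmb6 and Nudt19 lie far from 0 on both axes, and Hes5 lies near 0 on the vertical axis.

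All 20 genes with the smallest p-values after saline had the same sign after methamphetamine. Nudt19 differed there by -2.25, Psmb6 by 1.56, Pttg1 by 1.42, Coa3 by 1.21, Pih1d1 by 1.16 and Slc15a2 by 1.05. Coa3 and Blcap (0.58 after the drug) were the 2 of 31 higher genes whose pools did not overlap after methamphetamine either, against 27 of 5307 genes (0.509%) that did not overlap there with HMACT higher. Med1 (-0.54) and Prom1 (-0.61) were the 2 of 125 lower genes, against 16 of 5307 (0.301%). Galnt11 differed by -0.43 after saline and by -0.40 after methamphetamine. The differences were smaller after the drug for Hes5 (0.12), Dnajb1 (0.38), Sgk1 (-0.28), Dusp6 (-0.27) and Egr2 (-0.14), and single drug arrays moved some of these. Leaving out single methamphetamine arrays gave -0.01 (without HMACT replicate 3) to 0.29 (without LMACT replicate 4) for Hes5, 0.27 to 0.48 for Dnajb1 and -0.21 to -0.08 for Egr2. For Sgk1 this gave -0.44 (without LMACT replicate 5) to -0.22 (without LMACT replicate 4). For Dusp6 it gave -0.50 (without LMACT replicate 5) to -0.13 (without LMACT replicate 3). Whether the line difference itself differed between saline and methamphetamine was tested as an interaction, which called 0 of 8251 genes (limma; smallest adjusted p = 0.86, 216 genes at an unadjusted p under 0.05), so that a difference between the 2 settings was not shown for any gene.

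Lots and ages were read beside these values. Of the 6 pools of each line, 4 were on the largest lot of arrays and 1 on each of 2 other lots, and the 20 genes kept their sign in each lot. HMACT replicates 1 to 3 came from mice with mean ages of 150, 141.5 and 154 days and replicates 4 to 6 from mice of 77.25, 82.5 and 78 days, while 5 LMACT pools had mean ages of 61.5 to 71 days and LMACT replicate 6 one of 127.5 days. Line and age thus overlap in part. With mean age as a covariate limma called 0 genes, as did the main fit without it. In the 3 HMACT and 5 LMACT pools under 100 days the difference was 1.87 for Pih1d1, 1.69 for Coa3, 1.19 for Hes5 and 1.05 for Slc15a2. It was -0.70 for Sgk1, -0.40 for Galnt11 and -1.45 for Nudt19. The 20 genes had the same sign in the young pools and with age in the model. The lots and the young pools are parts of the 12 saline arrays that chose these genes. The 11 of the 20 without overlap keep their sign in any such part, so the signs are not a separate test.

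**Figure D3:**
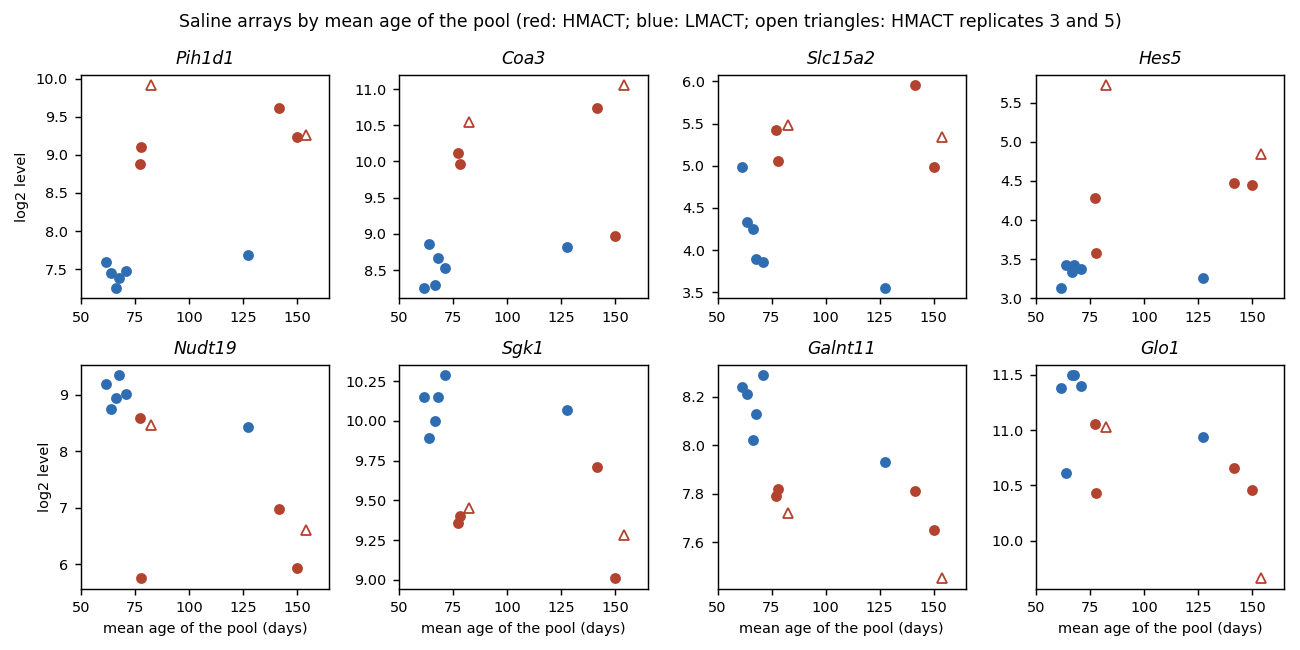
Deposited log2 values of 8 genes on the 12 saline arrays (vertical axes) against the mean age of the mice in each pool in days (horizontal axes), HMACT in red and LMACT in blue; open triangles are HMACT replicates 3 and 5. Pih1d1 and Sgk1 separate the lines among the pools under 100 days, as they do over all 12 arrays. The older LMACT pool (127.5 days) lies with the other LMACT pools for both.

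The groups of genes described next were tested only as single genes in the same fit, and all their members had an adjusted p above 0.05. For each list the counts at an unadjusted p under 0.05 are given. They are to be read against the 10.1% of all genes that were higher and the 12.8% that were lower at that level. Counts at any size are to be read against 54.5% of all genes that were higher. Without HMACT replicates 3 and 5, 2611 of the 5307 genes were higher and 2677 lower. Members without overlap are to be read against 0.584% (higher) and 2.36% (lower) of all genes. That split depended on the scaling of the arrays. Values after methamphetamine are given for part of the members.

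Immediate early genes, which are transcribed within minutes of a stimulus, were as often higher as lower over the whole list. Of 27 above the floor, 14 were higher and 13 lower (12 and 15 without the 2 arrays). The median difference was 0.04, and -0.03 without the 2 arrays. At an unadjusted p under 0.05, 1 was higher and 6 were lower, and the pools did not overlap for Dusp6 and Klf6. Fos, which encodes a subunit of the AP-1 transcription factor, ranged from 7.53 to 9.82 in HMACT and from 9.58 to 9.87 in LMACT; HMACT replicate 3 was the lowest, and the difference of -0.65 became -0.42 without replicates 3 and 5. Klf6, a zinc-finger factor, was at 4.77 in HMACT replicate 3 and no higher than 7.36 in the other HMACT pools, against 7.36 to 7.85 in LMACT, so that its groups only just failed to touch; its difference of -0.87 became -0.29 without the 2 arrays. Among 19 genes induced by glucocorticoids, 1 was higher and 3 were lower at that level, with Sgk1, Errfi1 (-0.58, and -0.36 without the 2 arrays), a feedback inhibitor of the EGF receptor, and Mt1 (0.88, and 0.33), a metallothionein, as the named members. The list had 13 higher and 6 lower genes in all, with a median of 0.08. Without the 2 arrays it had 8 higher and 11 lower, with a median of -0.03. HMACT replicate 3 stood out for Errfi1, at 7.93, and for Mt1, at 13.52. A second probe set of Errfi1 differed by -0.02. After methamphetamine Klf6 and Errfi1 differed by 0.03 and 0.11. Leaving out single methamphetamine arrays gave -0.27 to 0.25 for Klf6 and -0.10 to 0.27 for Errfi1.

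Chaperone and proteasome genes did not run 1 way. Of 37 chaperone genes above the floor, 18 were higher and 19 lower in HMACT (median -0.04), with 4 higher and 1 lower at an unadjusted p under 0.05. Beside Pih1d1 and Dnajb1 the named member was Stip1, the adaptor between HSP70 and HSP90, at 4.70 to 6.28 in HMACT and 4.05 to 4.91 in LMACT (difference 0.76, and 0.50 without the 2 arrays). Of 35 proteasome subunit genes, 21 were higher and 14 lower (median 0.14), with 7 higher and 2 lower at that level. Besides Psmb6, the regulatory subunit gene Psmd4 differed by 0.88 (0.49 without the 2 arrays) and Psmd5, which encodes an assembly chaperone of the regulatory particle, by 0.41. The only proteasome genes whose pools did not overlap were lower in HMACT, Psma3, a subunit of the core, at 10.07 to 11.88 against 12.02 to 12.40, and Psmd14, a deubiquitinating subunit, at 7.63 to 8.92 against 8.93 to 9.23. Their differences of -0.69 and -0.51 were -0.42 and -0.31 without the 2 arrays, and both genes were named after their values were seen. Without HMACT replicates 3 and 5 the medians of the 2 lists were 0.01 and -0.02.

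Genes of the mitochondrial respiratory chain had 35 higher and 21 lower of 56, with a median of 0.15 that became -0.06 without HMACT replicates 3 and 5, and 4 higher and 1 lower at an unadjusted p under 0.05. Apart from Coa3, the named members were Atp5a1, the alpha subunit of ATP synthase, with -0.29 (-0.19 without the 2 arrays), and Ndufa10, a subunit of complex I near the floor, with 0.18. Of 28 antioxidant enzymes, 18 were higher and 10 lower (median 0.20, and 0.03 without the 2 arrays), with 3 higher and 2 lower at that level. Gclc, which starts glutathione synthesis and was named after its values were seen, was the only one without overlap, with -0.35 (-0.22 without the 2 arrays). Gsta4, a glutathione transferase, differed by 0.42 (0.18 without the 2 arrays) and Sod1, the cytosolic superoxide dismutase, by 0.30, while Txn1, thioredoxin, was lower by -0.75. Of 9 genes of MHC class I and antigen presentation, 6 were higher and 3 lower (median 0.29, and 0.02 without the 2 arrays), and none reached that level. For H2-D1 (0.59) and H2-K1 (0.50), which present peptides, and the peptide-loading gene Tapbp (0.62) the difference without these arrays was 0.34, 0.31 and 0.28. The other probe sets of H2-D1 above the floor differed by 1.06 and -0.08, and signal from related MHC class I genes cannot be told apart by such probes. After methamphetamine H2-D1, H2-K1 and Tapbp differed by 0.48, 0.43 and 0.04. Leaving out single methamphetamine arrays gave -0.19 to 0.30 for Tapbp.

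**Figure D4:**
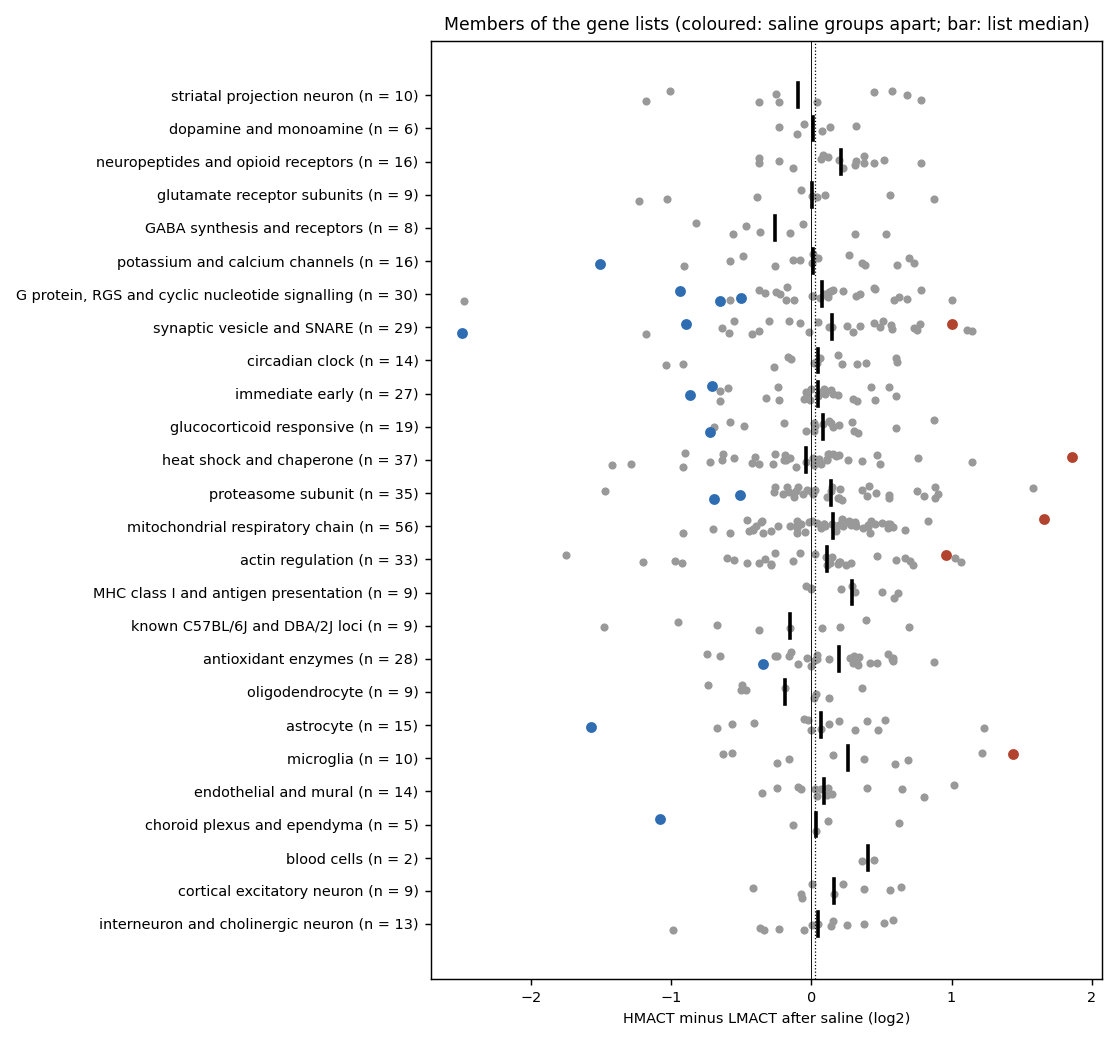
Differences between HMACT and LMACT after saline (log2, horizontal axis) for the members above the floor of 26 gene lists (n in brackets); each point is a gene, red and blue points are genes whose pools do not overlap, black bars are list medians and the dotted line is the median of all 5307 genes, 0.02. List medians lie between -0.26 and 0.40, the latter for the 2 blood cell genes, and most lists hold members on both sides of 0.

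Of 30 signal transduction genes for G proteins, RGS proteins and cyclic nucleotides, 18 were higher and 12 lower. Their median was 0.07, and -0.002 without the 2 arrays. At an unadjusted p under 0.05, 3 were higher and 6 lower, and the pools of Rgs2, Prkar1a and Gnai1 did not overlap. Rgs2, which shortens signalling by G proteins, lay from 7.85 to 9.69 in HMACT and from 9.82 to 10.33 in LMACT; its difference was -0.94 ± 0.30 (SE; limma adjusted p = 0.32), or -0.59 without the 2 arrays. Prkar1a, a regulatory subunit of protein kinase A, lay from 11.85 to 12.54 in HMACT and from 12.64 to 12.87 in LMACT, with a difference of -0.50 ± 0.15 (SE; limma adjusted p = 0.32). The difference of Gnai1, an inhibitory G protein alpha subunit, was -0.65 (-0.34 without the 2 arrays), and its second probe set differed by -0.07. Pde7a, a phosphodiesterase of cyclic AMP, differed by -0.58 (-0.36 without the 2 arrays). After methamphetamine Rgs2, Prkar1a, Gnai1 and Pde7a differed by -0.11, -0.06, -0.16 and 0.00, and without LMACT methamphetamine replicate 4 by -0.33, -0.14, -0.37 and -0.13. Without HMACT methamphetamine replicate 3, Rgs2, Prkar1a and Gnai1 differed by 0.12, 0.07 and 0.06, and the highest value of Pde7a was 0.09, without LMACT methamphetamine replicate 3.

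Of 29 genes of synaptic vesicles and their fusion, 17 were higher and 12 lower (median 0.15, and 0.07 without the 2 arrays). At an unadjusted p under 0.05 there were 5 in each direction. Stxbp3, a partner of syntaxins in vesicle fusion, had the lowest difference of any gene without overlap. Its HMACT values ran from 2.86 in replicate 3 through a median of 5.88 to 7.67, and its LMACT values from 7.80 to 8.45, and the difference was -2.50 ± 0.69 (SE; limma adjusted p = 0.32), or -1.56 without replicates 3 and 5. Syt4, a synaptotagmin named after its values were seen, did not overlap either, at 3.62 to 4.85 in HMACT and 4.97 to 5.49 in LMACT (difference -0.89). Syt5, a calcium sensor of vesicles, differed by 1.15 (0.73 without the 2 arrays) and Nsf, the ATPase that takes SNARE complexes apart, by 0.35. Cplx1, complexin 1, did not overlap (6.77 to 10.09 in HMACT, 6.18 to 6.66 in LMACT), and its difference of 1.00 was 0.52 without the 2 arrays; the value of 10.09 was that of HMACT replicate 3.

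Channel and receptor genes were mixed as well. Of 16 potassium and calcium channel genes, 1 was higher and 3 were lower at an unadjusted p under 0.05. Kcnd2, a pore subunit of A-type potassium channels, lay from 4.42 to 7.79 in HMACT and from 7.81 to 8.41 in LMACT, without overlap (difference -1.51, and -0.93 without the 2 arrays), and a second, dim probe set of it differed by -0.08. Kcnma1, the calcium-activated BK channel, differed by -0.49 after saline and -0.50 after methamphetamine. Kcnab1, an auxiliary subunit, differed by -0.91 (-0.43 without the 2 arrays), and its second probe set by -0.36. The list had 9 higher and 7 lower genes (median 0.01, and 0.02 without the 2 arrays). Of 8 genes for GABA synthesis and its receptors, 2 were higher and 6 lower (median -0.26). Of the lower ones, 2 had an unadjusted p under 0.05. Without the 2 arrays 4 were higher and 4 lower, with a median of -0.11. Gabrb1, a subunit of the GABA-A receptor, lay from 10.88 to 12.38 in HMACT and from 12.34 to 12.60 in LMACT, with a difference of -0.83, and the GABA-synthesizing enzymes Gad1 and Gad2 differed by -0.37 and -0.46 (Gad2 by -0.23 without the 2 arrays). Of 9 glutamate receptor genes, 5 were higher and 4 lower (median 0.00, and -0.02 without the 2 arrays). At an unadjusted p under 0.05 there was 1 in each direction. The named members were Grik2, a kainate receptor subunit (-0.39), Dlg4, the scaffold PSD-95 (0.56, and 0.29 without the 2 arrays), and Homer1, a scaffold near the floor (0.10, and 0.03 without HMACT replicate 1).

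Striatal and dopamine genes had 5 higher and 5 lower of 10 and 3 higher and 3 lower of 6. Their medians were -0.10 and 0.01 (0.03 and 0.05 without the 2 arrays). At an unadjusted p under 0.05, 2 striatal genes were lower and no dopamine gene reached that level. Foxp1, a transcription factor of projection neurons, differed by -1.01 (-0.58 without the 2 arrays), with HMACT from 5.17 to 7.48 and LMACT from 7.48 to 8.17; a second probe set differed by 0.18. Tac1, the precursor of substance P, differed by -0.37, and Pdyn, that of dynorphin, by 0.79, with a second probe set at -0.02. HMACT replicate 3, at 9.61, was the highest for Pdyn, whose difference was 0.46 without it and 0.30 without the 2 arrays. Th, tyrosine hydroxylase, differed by 0.32 (0.19 without the 2 arrays), Maoa, monoamine oxidase A, by 0.13 (0.05 without HMACT replicate 1) and Slc6a4, the serotonin transporter, by -0.10 (-0.03 without HMACT replicate 1), all within the spread of the pools.

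Among 16 neuropeptide genes, 12 were higher and 4 lower (median 0.21, and 0.08 without the 2 arrays), with 1 in each direction at an unadjusted p under 0.05. Ntsr1, a neurotensin receptor, had the smallest p, with a difference of 0.31 (0.18 without the 2 arrays), and Cckbr, a cholecystokinin receptor near the floor, differed by 0.07 (0.03 without HMACT replicate 6). The value of Ntsr1 was 3.89 on saline arrays of both lines. Of 14 circadian clock genes, 9 were higher and 5 lower (median 0.05, and -0.02 without the 2 arrays). At that level 1 was higher and 2 were lower. Tef, a transcription factor with a daily rhythm, differed by 0.61, Clock, which drives the rhythm, by -0.92 and Nr1d2, a repressor in it, by -1.04. Without the 2 arrays these were 0.37, -0.54 and -0.67.

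Of 33 actin regulators, 19 were higher and 14 lower (median 0.11, and 0.05 without the 2 arrays). At an unadjusted p under 0.05, 6 were higher and 5 lower. Coro2b, a coronin that binds actin filaments, lay from 8.93 to 10.89 in HMACT and from 8.30 to 8.80 in LMACT, without overlap, and differed by 0.96 ± 0.29 (SE; limma adjusted p = 0.32), by 0.69 without the 2 arrays and by 1.15 after methamphetamine. Cfl2, a cofilin that severs filaments, differed by -1.76 (-1.04 without the 2 arrays) and Capza1, a capping protein subunit, by -0.92. After methamphetamine Cfl2 and Capza1 differed by -0.13 and -0.19. These were -0.60 and -0.51 without LMACT methamphetamine replicate 4, 0.24 and 0.09 without HMACT methamphetamine replicate 3, and -0.23 for both without the pair.

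In all, 9 genes above the floor came from loci known to differ between C57BL/6J and DBA/2J or to bear on the response to methamphetamine. Of these, 4 were higher and 5 lower (median -0.15, and -0.24 without the 2 arrays). At an unadjusted p under 0.05, 3 were lower. Csnk1e, casein kinase 1 epsilon, had HMACT values from 7.89 to 9.37, with a median of 8.53, and LMACT values from 7.80 to 8.71, with a median of 8.31. The groups overlapped, and the difference was 0.39 ± 0.26 (SE; limma adjusted p = 0.466), or 0.23 without HMACT replicates 3 and 5. Glo1, glyoxalase 1, lay from 9.66 to 11.06 in HMACT and from 10.61 to 11.50 in LMACT; its difference was -0.67 ± 0.20 (SE; limma adjusted p = 0.32), and its second probe set differed by -0.56. Hnrnph1, an RNA-binding splicing factor, differed by -1.48, and by -0.71 without the 2 arrays. Its difference after methamphetamine was -0.03, but -0.65 without LMACT methamphetamine replicate 4, 0.50 without HMACT methamphetamine replicate 3 and -0.12 without both.

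Mpdz, a scaffold with PDZ domains, differed by -0.95 (-0.56 without the 2 arrays), with other probe sets near the floor at -0.09 and 0.05. Ahr, the aryl hydrocarbon receptor, was close to the floor, at 2.34 to 2.80 in HMACT and 2.57 to 3.30 in LMACT; its difference was -0.37 after saline and -0.53 after methamphetamine. Kcnj9, a subunit of potassium channels opened by G proteins, differed by 0.70, and by 0.28 without the 2 arrays. Its second probe set differed by 0.24. The differences of Alad (0.20), an enzyme of haem synthesis, Nnt (0.08), a mitochondrial transhydrogenase, and Gabra2 (-0.15), a GABA-A receptor subunit, were smaller than the SD of the HMACT pools and took the other sign in some settings. Alad lay at -0.24, Nnt at -0.11 and Gabra2 at 0.08 without HMACT replicates 3 and 5.

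Markers of other cell types were set beside these values, since in bulk tissue fewer cells of a type and less RNA per cell cannot be told apart. Of 9 oligodendrocyte genes, 4 were higher and 5 lower (median -0.19), and 9 of 9 were lower without HMACT replicates 3 and 5 (median -0.27); 3 were lower at an unadjusted p under 0.05. Mobp, a myelin protein, lay from 11.31 to 12.64 in HMACT and from 12.36 to 12.99 in LMACT (difference -0.74, or -0.48 without the 2 arrays, and -0.86 after methamphetamine), and its other probe sets differed by 0.25, -0.50 and -0.18. Mal differed by -0.47 and Evi2a by -0.50, with -0.82 in a second probe set of Evi2a. The mean level over the oligodendrocyte list was 8.19 to 8.92 in the HMACT pools and 8.37 to 8.91 in the LMACT pools, and Cnp, Ugt8a and Gjb1 did not pass the floor rule.

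Of 15 astrocyte genes, 8 were higher and 7 lower (median 0.07), with 2 higher and 3 lower at an unadjusted p under 0.05. The median was -0.06 without the 2 arrays, where 6 were higher and 9 lower. The largest difference was that of Dio2, a deiodinase that activates thyroid hormone, named after its values were seen. It lay from 6.07 to 9.31 in HMACT and from 9.38 to 9.70 in LMACT, without overlap, and differed by -1.57, or -0.87 without the 2 arrays. Slc15a2 was the largest of the higher ones, followed by S100b, a calcium-binding protein, with 0.53, while Slc4a4, a bicarbonate cotransporter, differed by -0.67. The mean level of the list was 8.63 to 8.93 in HMACT and 8.71 to 8.94 in LMACT. Of 10 microglial genes, 6 were higher and 4 lower (median 0.26, and 0.05 without the 2 arrays). At an unadjusted p under 0.05, 1 was higher and 2 were lower. C1qb, a chain of complement C1q, was at 9.98 in HMACT replicate 3, from 5.30 to 6.58 in the other HMACT pools and from 4.89 to 5.29 in LMACT, and C1qa reached 9.38 on the same array. The C1qb difference of 1.44 was 0.58 without the 2 arrays, and that of C1qa 1.22 and 0.38, while Ctss, a lysosomal protease of microglia, differed by -0.63 (-0.37 without the 2 arrays) and Cd53, a tetraspanin of immune cells, by -0.16. The value of Cd53 was 3.72 on saline arrays of both lines. The list mean was 6.16 to 7.70 in HMACT and 6.16 to 6.58 in LMACT, and Cx3cr1, Aif1 and Itgam did not pass the floor rule. After methamphetamine C1qb, C1qa and Ctss differed by 0.62, -0.21 and -0.13. Leaving out single methamphetamine arrays gave -0.66 to 0.21 for C1qa. The part of microglia in these values was not tested.

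Several vessel, blood, choroid plexus and cortical markers were high or low on HMACT replicate 3. Of 14 endothelial and mural genes, 10 were higher and 4 lower (median 0.09, and 0.06 without the 2 arrays). At an unadjusted p under 0.05, 1 was higher and 2 were lower. Cldn5, a tight-junction protein of endothelium, differed by 0.80, with HMACT from 4.69 to 5.80 and LMACT from 4.03 to 5.25. Tek, the angiopoietin receptor, and Col4a1, a collagen of the basement membrane, went the other way, by -0.25 and -0.36 (Col4a1 by -0.23 without the 2 arrays). The haemoglobin genes Hba-a1 (0.45) and Hbb-b2 (0.36) differed by -0.37 and -0.07 without HMACT replicates 3 and 5, and Hba-a1 was highest, at 11.30, on replicate 3; neither had an unadjusted p under 0.05. Beside Prom1, which stood in the choroid plexus and ependyma list, Igfbp2, a binding protein of insulin-like growth factors, differed by 0.62 (0.34 without the 2 arrays) and Folr1, a folate receptor, by -0.13 (-0.05 without LMACT replicate 4). The list of 5 had a median of 0.03 (-0.02 without the 2 arrays), with 1 in each direction at that level. After methamphetamine Igfbp2 and Cldn5 differed by -0.01 and -0.04. Leaving out single methamphetamine arrays gave -0.17 to 0.10 for Igfbp2 and -0.28 to 0.35 for Cldn5. Of 9 cortical excitatory neuron genes, 6 were higher and 3 lower (median 0.16, and 0.05 without the 2 arrays). At that level 1 was higher. Nrgn, neurogranin, reached 12.31 on HMACT replicate 3 and 9.41 to 10.64 on the other HMACT pools, against 9.56 to 10.01 in LMACT (difference 0.64). Cux1 and Fezf2, both transcription factors of cortical neurons, differed by 0.56 and 0.22. Without the 2 arrays Nrgn, Cux1 and Fezf2 differed by 0.23, 0.15 and 0.05, and Fezf2 by 0.12 without LMACT replicate 2. Of 13 interneuron genes, 8 were higher and 5 lower (median 0.05), with 2 lower at that level. Without the 2 arrays 4 were higher and 9 lower, with a median of -0.05. Pvalb, parvalbumin, differed by -0.99 and Calb2, calretinin, by 0.58, with HMACT replicate 3 lowest for the first, at 4.21, and highest for the second, at 7.58. Without that array Pvalb differed by -0.60 and Calb2 by 0.31, and without the 2 arrays by -0.68 and 0.19. A second probe set of Pvalb differed by -0.18 over all arrays.

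**Figure D5:**
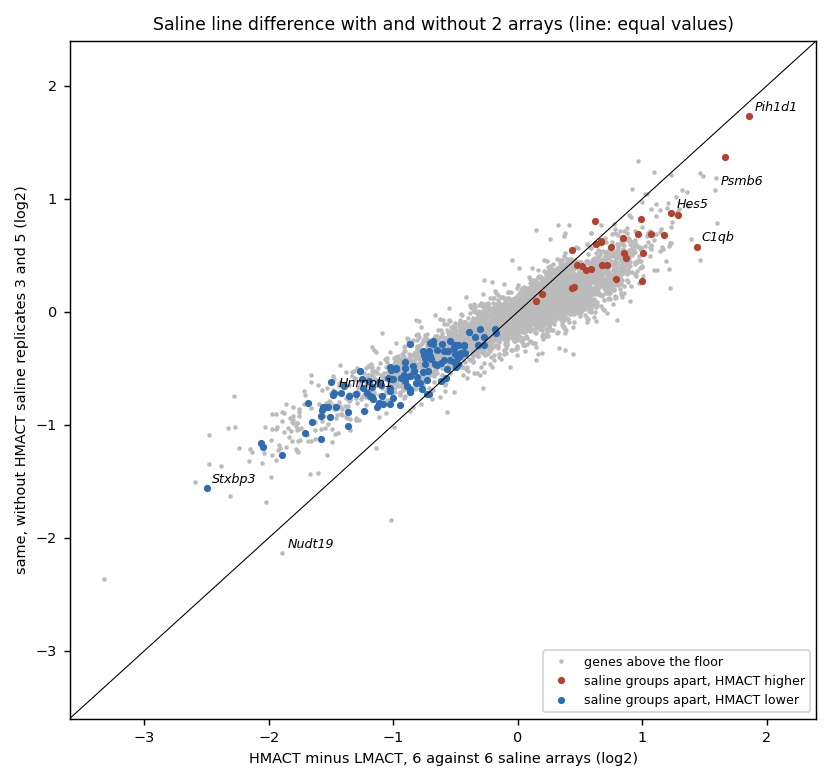
Difference between HMACT and LMACT after saline (log2) over 6 against 6 arrays (horizontal axis) and without HMACT replicates 3 and 5 (vertical axis) for the 5307 genes above the floor, with genes without overlap in red and blue. The 2 sets of values, which share 10 arrays, correlate with r = 0.920, and most of the coloured genes lie nearer to 0 on the vertical axis; Pih1d1 keeps 1.73 of 1.86 and Nudt19 goes from -1.89 to -2.13.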

How the data were processed

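Total RNA of 23 pools was hybridised to Affymetrix MG-U74Av2 arrays, per the labels. The authors deposited log2 values per probe set with R 2.7.1, per the submitters' processing notes; how background was corrected and arrays normalized is not stated, and the log2 scale was read from the range of the values (2.23 to 16.36). Signal per array limits precision, and no read depth exists.

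Of 12488 probe sets, 66 were controls, 10833 had 1 gene symbol in the platform annotation, 396 several and 1193 none listed; 10817 symbols were matched to RefSeq. The probe set with the highest mean stood for each of 8251 genes, of which 2073 had several. Samples were grouped by the labels' line and dose. Differences were tested with limma 3.58.1 in R 4.3.3 (means of the 4 groups over 23 arrays, eBayes, Benjamini-Hochberg adjustment over 8251 genes, threshold 0.05). The fit was run on simulated data with independent noise and an equal spread in all groups. That setting lacks the uneven spread and the shared axis of these arrays. Fold changes of genes near the floor are understated.

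Genes were named by rule: the 10 smallest p-values in each direction among genes above the floor, since none was called, up to 3 members of each of 26 lists, every strain-locus gene above the floor, and Csnk1e. Blcap, Cplx1, Klf6, Gnai1, C1qa, Dio2, Psma3, Psmd14, Gclc, Syt4 and the genes under other observations were named after their values were seen. Members and lists were chosen with earlier results of these data known. Alternatives were other scalings, filters, probe set rules, variance models, array weights, lot, age and replicate number in the model, and leaving out arrays.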

Additional observations from a re-analysis of the deposited data

Results flagged for a closer look

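A pool lay far from the other 5 of its group, by Dixon's gap test at the 95% level, in 36 of 242 groups (121 named genes in 2 groups, 14.9%). The 1 in 20 of this test holds for independent and normally spread values. It is no reference here, since the genes share arrays and some groups held nearly equal values, such as Folr1 in HMACT. HMACT saline replicate 3 was the pool in 16 of the 36. It was high for C1qb (9.98), Cplx1 (10.09), Dlg4 (10.30), Mt1 (13.52), Nnt (6.19), Rxrg (6.73), Stip1 (6.28) and Th (5.20). It was low for Cd53 (3.44), Psma3 (10.07), Errfi1 (7.93), Fos (7.53), Klf6 (4.77), Pvalb (4.21), Txn1 (9.41) and Vldlr (2.24, at the floor). This array also had the smallest difference between the 3′ and 5′ control probe sets, 1.07 log2 units, and its part in each of these values was not tested beyond leaving it out.

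HMACT replicate 6 was high for Ahr (2.80) and Cckbr (2.60) and low for Wipi2 (10.06). HMACT replicate 1 was low for Slc6a4 (3.43), and replicate 5 was set apart for Folr1 (3.76) by a small gap. Among the LMACT pools, replicate 5 was low for Dnajb1 (5.52) and Egr2 (9.16), and replicate 1 for Ntsr1 (3.55) and Psmd4 (9.25), while replicate 1 was high for Slc6a4 (3.97) and Tek (3.29). Replicate 3 was low for Reck (6.26) and high for Ndufa10 (2.85). Replicate 4 was low for Rxrg (3.97) and Homer1 (2.50) and high for Folr1 (4.28). Replicate 6 was high for Npy2r (9.95) and low for Cckbr (2.28), and replicate 2 was low for Fezf2 (4.74) and set apart for 1110059E24Rik (6.63).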

How the results depend on the processing

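The count of genes called between the lines after saline was 0 with both rules for dim genes, with quantile normalization, median centring, the mean of all probe sets, eBayes with trend and robust settings, lot or age in the model, or pools under 100 days alone. It was 1 with the 12 saline arrays alone and with the largest lot alone (Pih1d1, adjusted p = 0.00265 and 0.0319 by limma). It was also 1 without HMACT saline replicates 3 and 5 or without the 4 arrays that scored highest on the main axis. The latter alternative was chosen after seeing the data. The gene called there, Grid1, was above the floor on 4 of 12 saline arrays and differed by 0.08; over the genes above the floor the count without replicates 3 and 5 was 0. Array weights, which give uneven arrays less influence, called 236 genes, and the first principal component of the residuals as a covariate 1623, a covariate estimated from the same residuals that the test uses. Leaving out single arrays gave 0 to 1. Saline arrays of the same number did not pair (correlations from -0.153 to 0.221; 2 of 6 HMACT arrays correlated best with their own number), and the replicate block called 0 genes, fixed or random (correlation within blocks 0.224).

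Genes without overlap numbered 31 higher and 125 lower. They were 95 and 56 after quantile normalization, 111 and 55 after median centring, 78 and 328 in the largest lot alone and 134 and 228 in the pools under 100 days, where fewer arrays overlap less often by construction. Leaving out single arrays gave 31 to 194 and 128 to 317, the highest without HMACT replicate 6. The higher count passed 1.5 times the main one also without HMACT replicate 1 (54) and LMACT replicates 3 (81) and 6 (56), and the lower count without HMACT replicate 4 (201) and LMACT replicate 3 (205).

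Of 3627 values of named genes under alternatives, 3473 kept direction and call, 132 passed the threshold and 22 took the other sign, in 5 genes whose main difference was under 0.5. Without HMACT replicates 3 and 5, alone, with the filter or with all 4 arrays left out, these were Alad (-0.24), Gabra2 (0.08), Hba-a1 (-0.37), Hbb-b2 (-0.07) and Nnt (-0.11). Gabra2 was also 0.02 in the largest lot, Hba-a1 -0.27 and Nnt -0.02 in pools under 100 days, and Nnt -0.16 with array weights. Leaving out single arrays gave -0.39 to 0.02 for Gabra2 (the highest without HMACT replicate 5), -0.09 to 0.73 for Hba-a1 and -0.09 to 0.17 for Nnt (the lowest of both without HMACT replicate 3). The cause was not tested. The values without single drug arrays or without both that stood apart were chosen after seeing the data. Signal near the floor limits Ahr, Mpdz and Tmem168, among others. Some genes held a single value on several arrays of the 2 lines. These were Cd53 (3.72), Slc6a4 (3.85), Folr1 (3.74), Ntsr1 (3.89), Homer1 (2.56) and Cckbr (2.37). Their differences come from the other arrays, and whether these levels are a limit of detection was not tested.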

Other observations

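Several genes outside the lists had pools that did not overlap after saline, and they are given here as values chosen after they were seen. Rxrg, a retinoid receptor of striatal neurons, lay from 4.57 to 6.73 in HMACT and from 3.97 to 4.52 in LMACT, with a difference of 0.85, or 0.52 without HMACT replicates 3 and 5. Calb1, calbindin, lay from 9.49 to 10.49 in HMACT and from 10.54 to 11.11 in LMACT (difference -0.81), and Ryr2, a calcium release channel, from 5.52 to 6.04 and from 6.09 to 6.37 (-0.52). Npy2r, a receptor of neuropeptide Y, differed by -1.36 (-0.89 without these 2 arrays). Sox2, a transcription factor of glia and precursors, differed by -0.95, and Prkcb, a protein kinase C, by -0.65. The second probe sets of Npy2r and Prkcb differed by -0.20 and -0.52. Hprt, an enzyme of purine salvage that is often used as a reference gene, lay from 9.77 to 10.64 in HMACT and from 10.65 to 10.87 in LMACT (-0.48, and -0.30 without the 2 arrays), and differed by 0.03 after methamphetamine, or -0.24 without LMACT methamphetamine replicate 4 and 0.21 without HMACT methamphetamine replicate 3. None of these passed limma's adjusted test.

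The largest difference of any gene above the floor was that of Stag2, a cohesin subunit, at -3.32 ± 1.18 (SE; limma adjusted p = 0.32). Its HMACT values ran from 3.23 to 8.57, with a median of 4.10, and its LMACT values from 7.64 to 9.19, so that the groups overlapped. A second probe set of Stag2 differed by -2.07.

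Among the 156 of 5307 genes without overlap, 6 pairs were neighbours in the order of the genes above the floor along RefSeq's annotation. Other genes may lie between the members of a pair. The number of such pairs in a random order was not computed, and linkage was not tested. Ppp2r5d (0.72) and Pex6 (1.28) were both higher in HMACT. Wac (-0.43) and Usp14 (-0.51), Zfand5 (-0.92) and 1110059E24Rik (-0.76), Vldlr (-0.30) and Pum3 (-0.61), Bmi1 (-1.53) and Pip4k2a (-0.57), and Gnai1 (-0.65) and Phtf2 (-1.13) were both lower. Without the 2 arrays Ppp2r5d differed by 0.42, Usp14 by -0.32, Zfand5 by -0.56, 1110059E24Rik by -0.35, Vldlr by -0.15, Bmi1 by -0.85 and Gnai1 by -0.34. The others moved by less than 1.5 times. The other probe sets of Pip4k2a above the floor differed by -0.19 and 0.01, and that of Gnai1 by -0.07. After methamphetamine Ppp2r5d differed by 0.20, Pex6 by -0.01 and Wac by 0.03. The other members of the pairs were lower in HMACT there, from -0.52 (Bmi1) to -0.10 (Vldlr). Leaving out single methamphetamine arrays gave -0.30 to 0.37 for Pex6 and -0.26 to 0.20 for Wac.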
